A study of Mus musculus with 21 samples.

Results

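Experiments 1 and 3 of a study of tumour blood vessels were compared between genotypes: 9 of the 21 samples of the series, 5 from wild-type mice (WT) and 4 labelled as knockout of Shb (KO). They were chosen by experiment number. Experiment 1 held 3 WT and 2 KO libraries and experiment 3 held 2 WT and 2 KO libraries, so neither alone had 3 on both sides, and experiment number entered each fit as a block. In all of them adult mice carried E0771.lmb tumours, grown from a mouse mammary tumour line. Per the labels' protocol, tumours grew after tamoxifen had been injected, and the animals were killed 14 to 16 days after receiving tumour cells. The knockout was Shb flox/flox with Cdh5-CreERt2, a Cre recombinase that acts in cells with an active Cdh5 (VE-cadherin) promoter once tamoxifen is given. The protocol text also names Shb flox/flox with Vav1-cre, a Cre of blood cells, and the labels place no sample in that line. Total RNA came from CD31+ cells taken by fluorescence-activated sorting after a magnetic bead step for CD45+ cells. The whole series drew its WT samples from 9 tumours and its KO samples from 8 tumours. Which of the samples come from 1 tumour is not stated, and the p-values below may partly reflect variation within a tumour.

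Shb is an SH2-domain adaptor protein that binds activated tyrosine kinase receptors. In endothelial cells it acts downstream of the VEGF receptor VEGFR-2, encoded by Kdr, and passes the signal on to focal adhesion kinase, phosphoinositide 3-kinase and the small GTPase Rap1. These signals bear on sprouting, cell spreading and the tightness of vessel walls. Values are in TPM, a length-corrected measure of transcript abundance that is scaled to the same sum in each library. A difference is given as KO minus WT on the log2(TPM + 1) scale, adjusted for experiment, and it understates the change of genes with low levels.

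Before the genotypes were compared, the libraries were checked for depth and cell makeup. Column totals lay between 999999.15 and 1000000.62, so the deposited values keep no depth and no counting error can be given. Genes above 0 numbered 12550 to 20526 per library. Mitochondrially encoded RNA made up 2.35% to 11.4% of a library, and its 20 most abundant genes 19.7% to 35.7%. The defining endothelial markers were abundant in every library, with Pecam1, which encodes CD31, between 855.8 and 1960 TPM. WT replicate 2 of experiment 3 stood apart. It had the lowest Pecam1, and its summed macrophage and monocyte markers reached 7896 TPM, against 69.4 to 640.2 TPM in the other 8 libraries. Its summed fibroblast markers were 1021 TPM against 34.3 to 219.95 TPM. The tumour epithelium markers summed to 144 TPM in it and to at most 8.89 TPM elsewhere, with Epcam between 0 and 1.25 TPM in all 9 libraries. Results that rest on this library are given with and without it. In sorted bulk RNA, fewer cells of a type and less RNA per cell cannot be told apart.

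**Figure D1:**
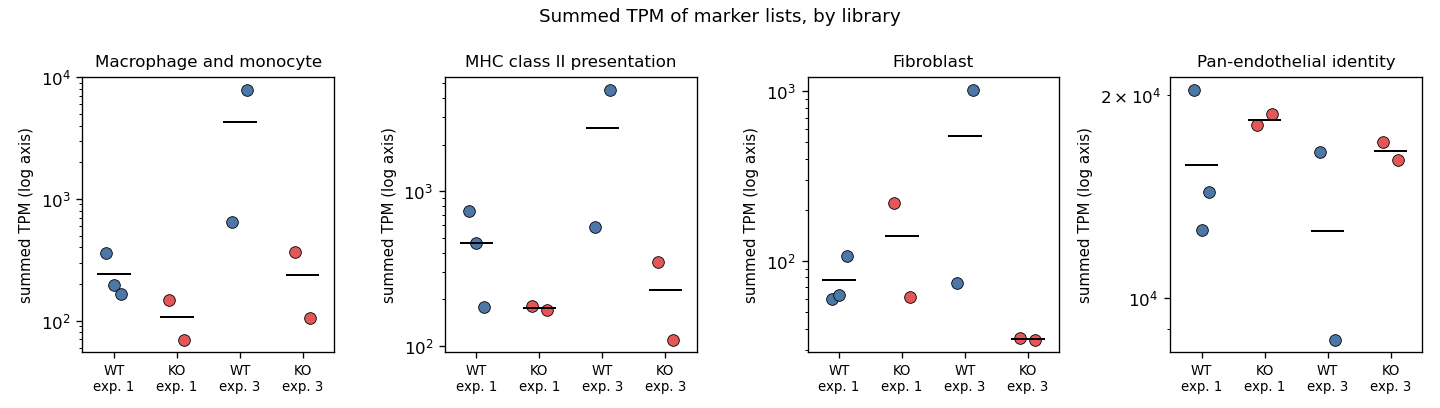
Summed TPM of 4 gene lists in each library (points, log axes; bars are group means), by experiment and genotype. WT replicate 2 of experiment 3 is the highest point for macrophage (7896 TPM), MHC class II (4521 TPM) and fibroblast (1021 TPM) sums and the lowest for pan-endothelial genes (8669 TPM).

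The sequences behind the results are of 2 kinds. The first is a pair of histone H4 genes, the only place where a gene passed the test across the genome. The 30 bases around the start codon are shown for both (GENCODE M21 transcripts, GRCm38), 15 of the leader and 15 of the coding part, with the one differing base in capitals.
Hist1h4m: agttttgtcttcGtcatgtctggtcgtggc
Hist1h4n: agttttgtcttcAtcatgtctggtcgtggc
Written as a substitution from Hist1h4m to Hist1h4n this is G36A, with positions counted from 1 at the 5′ end of the Hist1h4m transcript. It was the only difference over 402 aligned bases, and the coding parts of 312 bases were identical. The second kind is the promoter motif of genes that respond to type I interferon, the interferon-stimulated response element (ISRE), to which a complex that holds STAT2 and IRF9 binds. It was searched as GAAA, any 2 bases and GAAA again, on both strands, in the 250 bases before each gene's start (RefSeq, GRCm38.p6), and overlapping matches are joined in capitals. Matches in 4 genes described further on are shown, written along the strand of the gene.
Isg15, chr4:156200860-156200911, minus strand: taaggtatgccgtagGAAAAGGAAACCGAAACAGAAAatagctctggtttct
Stat2, chr10:128270261-128270300, plus strand: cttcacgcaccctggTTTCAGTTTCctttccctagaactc
Rsad2, chr12:26456548-26456587, minus strand: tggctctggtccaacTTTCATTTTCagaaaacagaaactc
Ifit1, chr19:34640770-34640828, plus strand: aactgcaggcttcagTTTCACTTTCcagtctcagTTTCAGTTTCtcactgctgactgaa

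The targeted gene did not separate the labels. Shb (ENSMUSG00000044813, chromosome 4 from 45423278 to 45532470, minus strand, GRCm38) stood at 34.9, 17.2 and 74.3 TPM in the WT libraries of experiment 1 and at 36.2 and 52.7 TPM in its KO libraries. In experiment 3 it stood at 31.8 and 18.2 TPM in WT and at 13.0 and 40.4 TPM in KO. Both KO libraries of experiment 1 lay inside the WT range, and in experiment 3 one KO library lay below both WT libraries and the other above. The means were 35.3 ± 23.2 TPM over WT libraries (SD, n = 5) against 35.6 ± 16.6 TPM over KO libraries (SD, n = 4). The adjusted difference was 0.13 (SE 0.44, 95% interval -0.84 to 1.10), with p = 0.817 by a two-sided exact permutation test over 60 arrangements within experiments, where the smallest possible p is 0.0167. The sign of this difference changed when any of 3 libraries was left out (WT replicate 2 or KO replicate 2 of experiment 1, KO replicate 2 of experiment 3), over a range of -0.14 to 0.44. The value per gene counts reads from all exons, those outside the deleted part included, and the labels do not say which exon is flanked by loxP sites. The gene-level value of Shb thus did not bear out the genotype labels and does not check the deleted part, and every direction below is that of the libraries labelled KO.

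The genes that work with Shb were read next. The list held the Shb family, focal adhesion kinase and the Crk and Rap1 pathway, and 16 of 17 measured members had a difference above 0, with a median of 0.34. Over all 13786 genes tested the median was 0.20 and 9363 genes (67.9%) lay above 0, so differences are also given relative to that median. The list's relative median was 0.14, and 0.073 without WT replicate 2 of experiment 3. Pxn, which encodes the focal adhesion scaffold paxillin, stood at 225, 119.95 and 209 TPM in WT and 284 and 346.5 TPM in KO of experiment 1. The experiment 3 values were 184 and 137 TPM in WT and 217 and 304 TPM in KO. Within each experiment both KO libraries lay above all WT libraries, and the adjusted difference was 0.76 (SE 0.24, limma unadjusted p = 0.00883, adjusted p = 0.616). She, an SH2 adaptor of the same family, stood at 95.3, 64.9 and 84.4 TPM in WT and 111 and 129 TPM in KO of experiment 1. Its levels in experiment 3 were 78.05 and 26.1 TPM in WT and 79.75 and 93.2 TPM in KO, where the lower KO library was just above the higher WT library. Bcar1 (p130Cas, a substrate of focal adhesion kinase), Crkl (an adaptor of the Crk family), Ptk2 (focal adhesion kinase) and Tln1 (talin, which links integrins to actin) were likewise without overlap within both experiments, with differences of 0.39, 0.34, 0.37 and 0.28. Rap1a and Rap1b, the GTPases themselves, differed by 0.072 and 0.050. Of the 17 measured members 6 were without overlap within both experiments, all higher, beside 5.00% of all genes on that side. None of the 17 passed the test.

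**Figure D2:**
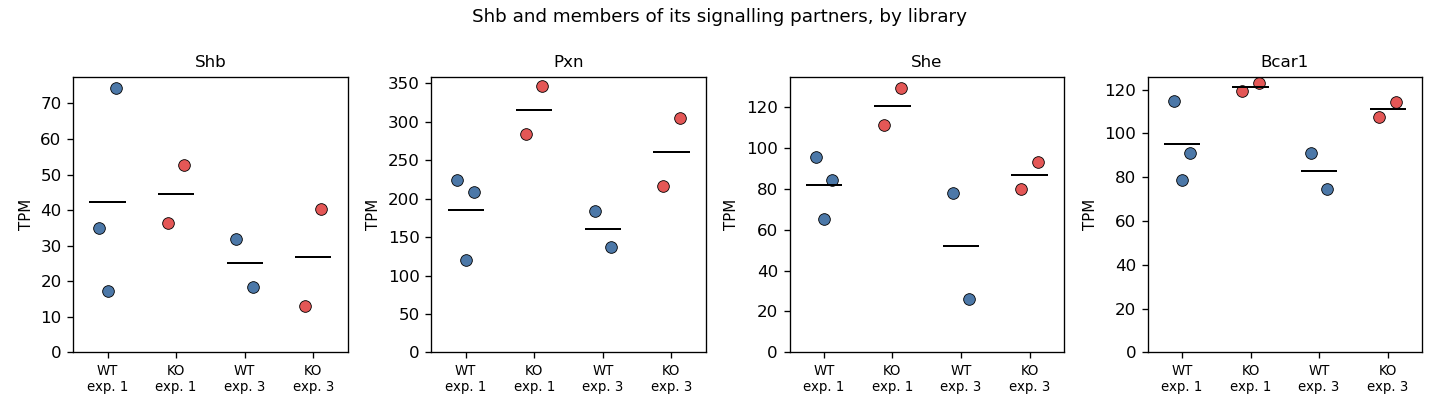
TPM of Shb, Pxn, She and Bcar1 in each library of experiments 1 and 3 (points; bars are group means). Shb values of KO and WT overlap in both experiments (13.0 to 74.3 TPM over all 9), while the KO points of the other genes lie above the WT points within each experiment.

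The comparison over all genes asked which transcripts of the sorted CD31+ cells differ between the libraries labelled KO and WT. Of 13786 genes 1 was called at a limma adjusted p under 0.05 (0.00725% of those tested), and it fell in the libraries labelled KO. An unadjusted p under 0.05 was reached by 1051 genes, where 689 is 5% of those tested: 864 stood higher (6.27%) and 187 lower (1.36%). Both counts depended on single libraries. They were 284 and 85 without KO replicate 2 of experiment 1, 485 and 238 without KO replicate 1 of experiment 1, 348 and 77 without KO replicate 2 of experiment 3, and 542 and 91 without WT replicate 2 of experiment 3. Without WT replicate 3 of experiment 1 they were 1234 and 284. The split also moved with scaling, to 546 higher and 319 lower on a common median and to 455 and 432 after quantile normalization. Libraries labelled KO did not overlap with WT, within experiment 1 and within experiment 3, for 689 genes on the higher side (5.00%) and 97 on the lower side (0.704%). Over all 9 libraries together, every KO library lay above every WT library for 158 of the 13786 genes and below for 36.

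The gene that passed was Hist1h4m (ENSMUSG00000069306, chromosome 13 from 21811746 to 21812147, plus strand), 1 of 13 genes for histone H4, a core protein of the nucleosome made in large amounts when DNA is copied. It stood at 138, 89.2 and 30.2 TPM in WT of experiment 1 and was listed at 0 in both KO libraries. In experiment 3 it stood at 112 and 54.4 TPM in WT, and the KO libraries were listed at 0 and 1.38 TPM. All 5 WT libraries lay far above all 4 KO libraries. The fitted difference was -5.96 (SE 0.49, limma adjusted p = 0.00110), a size that depends on the added value of 1 because 3 of 4 KO libraries were listed at 0. Over 21 alternatives it ran from -8.66 to -3.93 and the limma adjusted p from 1.7e-05 to 0.0236.

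Its neighbour Hist1h4n (chromosome 13 from 21831767 to 21832196, minus strand), which differs from it by the base shown above, did not follow it. Hist1h4n stood at 345, 0 and 44.4 TPM in WT and 166 and 249.6 TPM in KO of experiment 1. Experiment 3 gave 139 and 283.5 TPM in WT and 359.9 and 82.75 TPM in KO. The genotypes overlapped in both experiments, and the library listed at 0 for Hist1h4n was a WT library with 89.2 TPM for Hist1h4m. Of the 75-base windows of Hist1h4m, 292 of 328 also occur in Hist1h4n. How the authors' counting placed reads that match both genes is not given in the sources used here, so the level of each copy is uncertain.

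Summed, the pair did not differ by genotype beyond the spread. The sum of Hist1h4m and Hist1h4n was 483, 89.2 and 74.6 TPM in WT and 166 and 249.6 TPM in KO of experiment 1. Experiment 3 summed to 251 and 338 TPM in WT and 359.9 and 84.1 TPM in KO. The ranges overlapped in both experiments, with means of 247 ± 172 TPM over WT libraries (SD, n = 5) against 215 ± 118 TPM over KO libraries (SD, n = 4) and a difference of -0.085 (two-sided exact permutation p = 0.917). The sum over all 13 H4 genes was 1393 ± 725 TPM over WT libraries (SD, n = 5) against 1083 ± 700.4 TPM over KO libraries (SD, n = 4), a difference of -0.43 (two-sided exact permutation p = 0.417). The other 11 H4 copies differ from Hist1h4m at 10 to 42 of the 312 coding bases, and none of them passed the test.

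Experiments 2 and 4, whose libraries are not among these 9, gave the same 2 copies as follows. The last KO replicate of each could not be tied to a column and is not included. In experiment 2 Hist1h4m stood at 39.8, 30.9 and 69.96 TPM in WT and was listed at 0 in KO replicates 1 and 2, while Hist1h4n stood at 101 and 31.1 TPM in those KO libraries. In experiment 4 Hist1h4m stood at 63.3, 17.3 and 90.5 TPM in WT. KO replicate 1 of experiment 4 had 0.607 TPM of Hist1h4m and 117 TPM of Hist1h4n, and KO replicate 2 had 66.6 TPM of Hist1h4m and was listed at 0 for Hist1h4n. Thus 3 of these 4 KO libraries were low in Hist1h4m and the remaining one was low in its copy. Among the WT libraries Hist1h4n stood at 39.04 to 84.9 TPM in experiment 2 and at 21.6, 127 and 0.332 TPM in experiment 4, so a near-absent copy was also seen in a WT library.

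**Figure D3:**
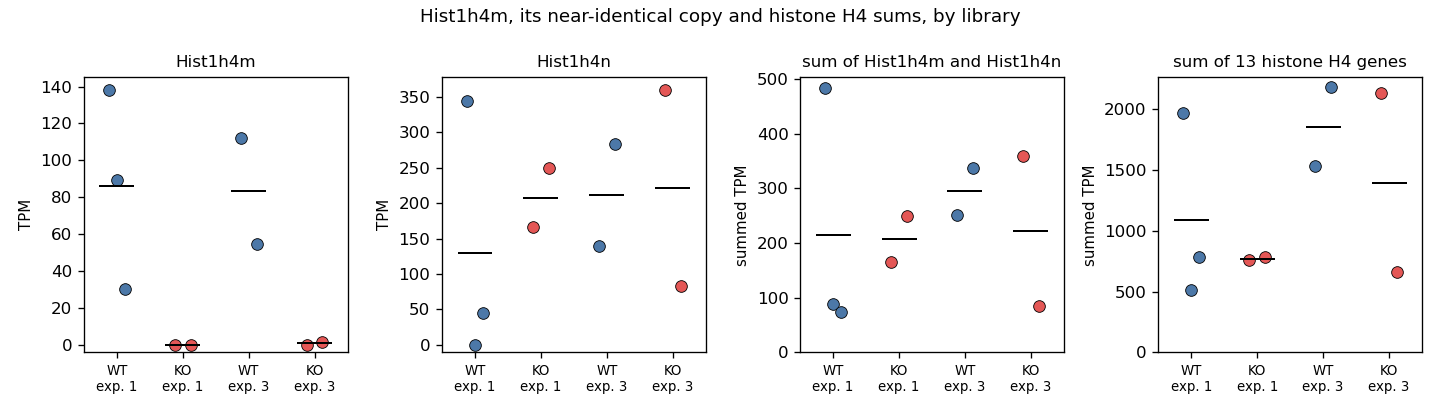
TPM of Hist1h4m, of Hist1h4n, of their sum and of all 13 histone H4 genes in each library (points; bars are group means). Hist1h4m is at 0 to 1.38 TPM in KO and at 30.2 to 138 TPM in WT, whereas the sums overlap between genotypes in both experiments.

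The genes next in order of p stood higher in the libraries labelled KO without passing (limma adjusted p = 0.616 for each gene of this paragraph). Erdr1, named for erythroid differentiation, stood at 209.8, 422 and 606 TPM in WT and 924 and 998 TPM in KO of experiment 1. WT libraries of experiment 3 had 244 and 129.6 TPM and the KO libraries 616 and 1067 TPM. All 4 KO libraries lay above all 5 WT libraries, with a difference of 1.73 (SE 0.35). Of the 75-base windows of Erdr1, 51.4% are shared with Gm21887, which also stood higher, with a difference of 2.49: summed, the pair stood at 158 to 756.9 TPM in WT and at 981.9 to 1801 TPM in KO. All 457 windows of Gm21887 also occur in Gm47283, which was not part of that sum, so the level of each copy is uncertain. Plekha7, a protein of the adherens junction, stood at 42.6 to 51.1 TPM in WT and 83.8 and 100.9 TPM in KO of experiment 1, and at 37.05 and 17.2 TPM in WT and 49.65 and 65.6 TPM in KO of experiment 3. Its KO values lay above the WT values of the same experiment, though KO replicate 1 of experiment 3 lay below 2 WT libraries of experiment 1.

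Among the same genes were a phosphatase, a phosphodiesterase and a large ubiquitin ligase. Dusp2, a nuclear phosphatase that inactivates MAP kinases, stood at 80.6, 129.8 and 122 TPM in WT and 188 and 247 TPM in KO of experiment 1. The experiment 3 values were 40.6 and 37.0 TPM in WT and 69.5 and 155 TPM in KO, so the order held within both experiments at different levels. Pde4d, which breaks down cyclic AMP, averaged 61.8 ± 20.5 TPM over WT libraries (SD, n = 5) against 110.3 ± 30.7 TPM over KO libraries (SD, n = 4). Rnf213, a ubiquitin ligase linked to moyamoya disease of brain arteries, averaged 231 ± 45.3 TPM over WT libraries (SD, n = 5) against 389 ± 82.6 TPM over KO libraries (SD, n = 4). Both were without overlap within each experiment. Ttc14, Sh2d5 and Znrf1 had differences of 1.04, 1.17 and 1.00. The pseudogene Vmn2r-ps19 was listed at 0 in 3 WT libraries and reached 0.74 and 6.14 TPM in the others, against 5.62 to 26.5 TPM in KO.

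On the lower side, leaving Hist1h4m aside, the 9 genes next in order were H2-Aa, H2-Eb1, Naaa, Fcgr3, C1qc, Ptprc, Ccnh, Ndufb8 and Mrps23 (limma adjusted p = 0.616 for each). Ccnh, the cyclin H subunit of the kinase that activates cell-cycle kinases and RNA polymerase II, stood at 18.7, 18.7 and 22.8 TPM in WT and 9.82 and 4.35 TPM in KO of experiment 1. Its levels in experiment 3 were 18.5 and 20.2 TPM in WT and 13.3 and 6.60 TPM in KO. The WT values formed a narrow band and every KO value lay below it, with a difference of -1.24 (SE 0.34). Ndufb8, a subunit of respiratory complex I, stood at 118 to 158 TPM in WT and 66.1 and 75.3 TPM in KO of experiment 1. Experiment 3 gave 110.5 and 126 TPM in WT and 97.9 and 56.9 TPM in KO, also without overlap. Mrps23, of the mitochondrial ribosome, had differences of -1.69 in experiment 1 and -0.32 in experiment 3, where the genotypes overlapped.

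Genes that respond to type I interferon stood higher in the libraries labelled KO. These genes encode antiviral effectors, RNA sensors and the factors that carry the signal from the interferon receptor to the nucleus. Of 31 measured members 30 had a difference above 0 and 28 lay above the median of all genes. An unadjusted p under 0.05 was reached by 12 members, all higher, beside the 6.27% of all genes on that side, and 12 were without overlap in both experiments, all higher, beside 5.00%. The list's median was 0.65, or 0.45 relative to all genes, and the relative median ran from 0.34 to 0.54 when single libraries were left out. Without WT replicate 2 of experiment 3 it was 0.53. In that setting 15 members had an unadjusted p under 0.05, all higher, beside 542 of all 13485 genes tested on that side. None of the 31 passed the adjusted test (limma adjusted p = 0.616 or higher).

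By role, the signal transducers came first. Stat2, a subunit of the transcription factor complex named above, stood at 72.1, 63.3 and 74.9 TPM in WT and 126 and 167 TPM in KO of experiment 1. WT libraries of experiment 3 had 69.9 and 67.4 TPM and the KO libraries 74.1 and 139 TPM. WT values were tight, and KO replicate 1 of experiment 3 lay among them though above those of its own experiment. The difference was 0.82 (SE 0.23, limma unadjusted p = 0.00482). Irf9, which binds DNA in the same complex, differed by 0.55. Among the RNA sensors, Ddx58 (RIG-I) averaged 103 ± 18.5 TPM over WT libraries (SD, n = 5) against 175 ± 53.6 TPM over KO libraries (SD, n = 4), without overlap within either experiment. Ifih1 (MDA5), its relative, differed by 0.15 with overlap.

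The antiviral effectors varied more. Mx2, a dynamin-like GTPase that blocks viruses, stood at 12.5, 36.8 and 39.6 TPM in WT and 67.9 and 88.97 TPM in KO of experiment 1. In experiment 3 it stood at 12.5 and 12.1 TPM in WT and 20.4 and 60.75 TPM in KO, so KO replicate 1 of experiment 3 lay below 2 WT libraries of experiment 1 although above those of its own. Its difference was 1.49 (SE 0.39). Oasl2, of the oligoadenylate synthetase family, stood at 163, 98.75 and 171 TPM in WT and 263 and 355 TPM in KO of experiment 1. The experiment 3 values were 132 and 152 TPM in WT and 175 and 259 TPM in KO. Rsad2 (viperin, which makes a chain-terminating nucleotide) stood at 64.1, 25.6 and 62.3 TPM in WT and 100.4 and 114 TPM in KO of experiment 1. Its levels in experiment 3 were 58.2 and 62.1 TPM in WT and 79.5 and 129 TPM in KO. All 4 KO libraries lay above all 5 WT libraries for Oasl2 and Rsad2, as they did for 158 of all 13786 genes. Isg15, a ubiquitin-like protein joined to other proteins during infection, did not separate: 102 to 185 TPM in WT and 134 to 179.8 TPM in KO, with a difference of 0.24. Ifi27l2a was the member below 0, with a difference of -0.59, and 0.085 in experiment 1 alone.

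The promoters of the list were searched for the ISRE letters shown above. Of the 31 members 21 had a promoter entry, and 10 of these (47.6%) held at least 1 match in the 250 bases before the start, against 3.45% of 26994 genes with an entry and 3.25% of 9355 genes that were also tested here. Of the 4 genes shown, Isg15 and Ifit1 overlapped between genotypes and Stat2 and Rsad2 did not within either experiment. Members with and without a match were not compared. Among genes of related response, 7 of 9 measured genes of the interferon-inducible PYHIN family of DNA sensors lay above 0, and 5 did so in both experiments. Their relative median was 0.39, which became 0.26 when WT replicate 2 of experiment 1 was left out, 0.25 when its KO replicate 2 was, and 0.26 when WT replicate 1 of experiment 3 was. Experiment 3 alone gave 0.0074. Of these, Mndal stood at 107 to 173 TPM in WT and 229 and 292 TPM in KO of experiment 1 and at 159 and 169 TPM in WT and 194 and 245.6 TPM in KO of experiment 3. The interferon-inducible GTPases (17 gene rows, relative median 0.086) and MHC class I and antigen processing genes (18 measured, relative median -0.14) lay close to the median of all genes.

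Immediate early genes, which are switched on within minutes of a growth factor, stretch or tissue handling, also stood higher. All 25 measured members had a difference above 0 and 24 lay above the median of all genes, with a relative median of 0.49. Without WT replicate 1 of experiment 1, the WT library with the lowest sum (2622 TPM), the relative median was 0.22. It was 0.37 without WT replicate 2 of experiment 3, where 1 member had an unadjusted p under 0.05, beside 542 of 13485 genes higher. With all libraries it was 4 members, beside 6.27% of all genes on the higher side. Of the 25, 1 member was without overlap in both experiments, beside 5.00% of all genes. That gene was Cyr61 (CCN1, a matrix-bound angiogenic factor), at 296, 406 and 319 TPM in WT and 491 and 487 TPM in KO of experiment 1. Experiment 3 gave 246 and 175 TPM in WT and 337 and 469 TPM in KO. The transcription factor Fos was spread far more widely, at 79.4, 749 and 886 TPM in WT and 909 and 765 TPM in KO of experiment 1 and at 655 and 117 TPM in WT and 419.5 and 773 TPM in KO of experiment 3. The highest value was in a KO library and the other 3 KO values lay inside the range of WT, and its difference was 1.10 (SE 0.74). Fosb likewise ran from 5.05 to 433 TPM in WT and from 122 to 480.2 TPM in KO. The summed TPM of the list was 8193 to 8301 in 3 KO libraries and 4159 in KO replicate 1 of experiment 3, and 2622 to 8123 in WT. It was 2622 to 5210 in WT replicate 1 of experiment 1 and in experiment 3 except KO replicate 2. Those libraries had 17082 to 20526 genes above 0. KO replicate 1 of experiment 1 had 8260 TPM and 17831 genes above 0. The remaining libraries had 5981 to 8301 TPM and 12550 to 14540 genes above 0. The part of this in the genotype difference was not tested.

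Feedback regulators of the MAP kinase pathway, which growth factor receptors induce and which then damp the signal, had 13 of 14 measured members above 0, beside 67.9% of all genes, a relative median of 0.25, and 4 members at an unadjusted p under 0.05, beside 6.27%. Spred3, an inhibitor of Ras signalling, stood at 60.75, 53.2 and 80.95 TPM in WT and 99.9 and 148 TPM in KO of experiment 1. WT libraries of experiment 3 had 30.2 and 34.2 TPM and the KO libraries 42.5 and 102 TPM, so the KO libraries were the higher ones within each experiment. Spry4 and Spred1, of the same group of inhibitors, had differences of 0.63 (SE 0.22) and 0.53 (SE 0.21) and were also without overlap. Of the 14 measured members 3 were without overlap within both experiments, all higher, beside 5.00% of all genes on that side. Dusp6, the phosphatase of ERK, differed by 0.40 and Etv5, an ETS factor induced by the pathway, by -0.56, both with overlap. In the NF-kB list, 14 of 15 members lay above 0, with a relative median of 0.28. It was 0.14 without WT replicate 1 and 0.44 without WT replicate 3 of experiment 1, and 0.49 without KO replicate 1 and 0.17 without KO replicate 2 of experiment 3. Bcl3, a nuclear cofactor of NF-kB, stood at 78.8, 72.1 and 101 TPM in WT and 150.2 and 158 TPM in KO of experiment 1. In experiment 3 it stood at 108 and 85.5 TPM in WT and 110.5 and 185 TPM in KO. KO replicate 1 of experiment 3 was just above WT replicate 1 of that experiment, and the other 3 KO libraries were clear of WT. Bcl3 was 1 of 4 members of the NF-kB list without overlap within both experiments, beside 5.00% of all genes on the higher side. Tnfaip3 (A20, which ends NF-kB signalling) differed by 1.32 (SE 0.58) and Nfkbia, the inhibitor that the pathway induces, by 0.60 (SE 0.24). None of these genes passed (limma adjusted p = 0.616 or higher).

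**Figure D4:**
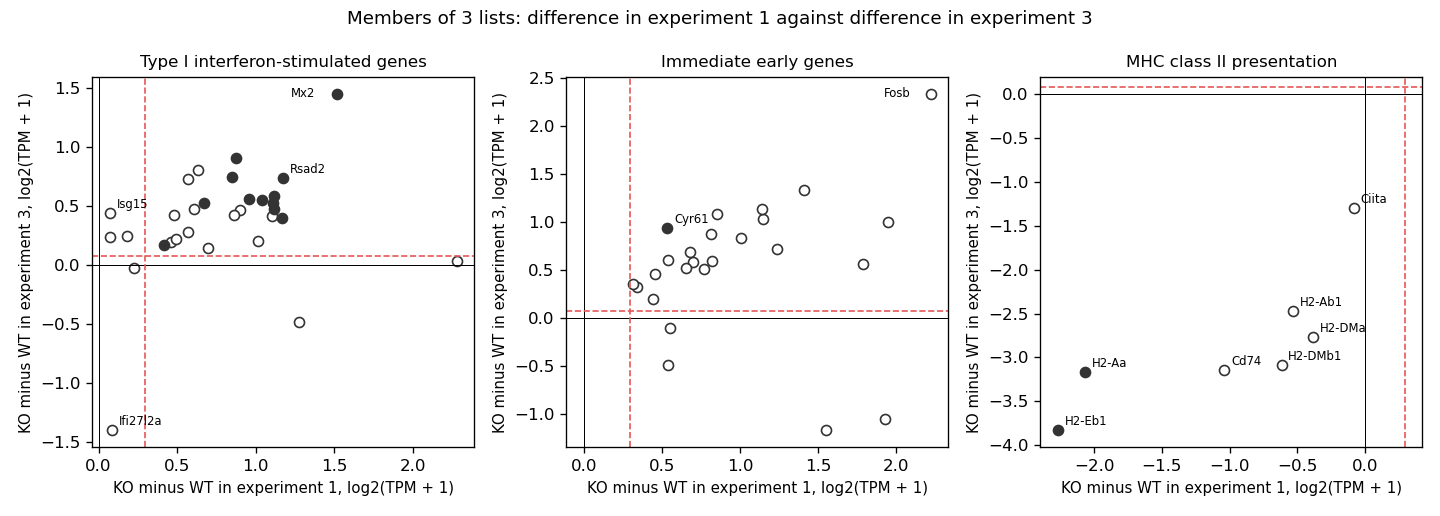
Difference of each measured member in experiment 1 (horizontal) and experiment 3 (vertical), log2(TPM + 1), for 3 gene lists; filled points are genes without overlap in both experiments and dashed lines are the medians of all genes (0.29 and 0.076). Most interferon-stimulated genes lie above 0 in both experiments, and all 7 MHC class II genes lie below 0 in both.

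VEGF receptors and their signalling proteins, the pathway in which Shb acts, lay at the median of all genes. Of 21 measured members 17 were above 0, with a relative median of 0.036, and -0.0014 with 0.1 in place of 1 as the added value. Without overlap within both experiments were 3 members, all higher, beside 5.00% of all genes on that side. Kdr (VEGFR-2) stood at 653, 402 and 406 TPM in WT and 633 and 594 TPM in KO of experiment 1. The experiment 3 values were 666 and 309.6 TPM in WT and 661 and 531 TPM in KO. The genotypes overlapped in both experiments, and the difference was 0.38 (SE 0.26). It was 0.57 without WT replicate 1 and 0.18 without WT replicate 2 of experiment 3. Flt1 (VEGFR-1, a receptor that also acts as a trap for the ligand) stood at 1003, 719 and 808 TPM in WT and 1210.3 and 1205 TPM in KO of experiment 1. Its levels in experiment 3 were 857 and 489 TPM in WT and 953 and 1103 TPM in KO, without overlap within either experiment, and the difference was 0.59 (SE 0.22, limma unadjusted p = 0.0201). Pik3r1, the regulatory subunit of phosphoinositide 3-kinase, stood at 58.2 to 85.01 TPM in WT and at 80.05 to 149.9 TPM in KO, without overlap within either experiment and with a difference of 0.71 (SE 0.21). Src, a kinase of the pathway, stood between 0.91 and 5.62 TPM in all libraries except WT replicate 2 of experiment 3, at 29.2 TPM.

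Notch genes restrain sprouting next to a leading tip cell. Of 17 members 14 lay above 0 with a relative median of 0.22. This median became 0.0095 without WT replicate 2, 0.13 without KO replicate 1 and 0.13 without KO replicate 2 of experiment 3, and it was 0.066 in experiment 1 alone. Dll4, the ligand made by tip and arterial cells, stood at 423, 342 and 298 TPM in WT and 450.6 and 523 TPM in KO of experiment 1. Experiment 3 gave 299.8 and 174 TPM in WT and 324 and 385 TPM in KO. Within each experiment the KO libraries were the higher ones, with a difference of 0.54 (SE 0.22). Hes1, a target of the receptor, was also without overlap (difference 0.45), and Notch1 and Hey1 overlapped in experiment 3 and experiment 1 respectively. Of the 17 members 2 were without overlap within both experiments, both higher, beside 5.00% of all genes on that side. Of 30 pan-endothelial genes 29 lay above 0, with a relative median of 0.16 that turned to -0.074 without WT replicate 2 of experiment 3 and was 0.25 without WT replicate 1 and 0.061 without KO replicate 1 of experiment 3. Their summed TPM was 16012 to 18742 in KO and 12610 to 20355 in WT, with that library at 8669. Tal1, a transcription factor of blood and endothelial lineage, stood at 32.2, 31.7 and 39.4 TPM in WT and 57.8 and 57.04 TPM in KO of experiment 1. WT libraries of experiment 3 had 24.3 and 11.1 TPM and the KO libraries 30.06 and 44.2 TPM.

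MHC class II genes, which display peptides to helper T cells and are made by professional antigen-presenting cells and by activated endothelium, stood lower in the libraries labelled KO. All 7 measured members were below 0 in both experiments, with a relative median of -1.94 that was -1.28 without WT replicate 2 of experiment 3. An unadjusted p under 0.05 was reached by 4 members, beside 1.36% of all genes on that side. Without that library it was reached by 2 members, beside 91 of 13485 genes on that side. H2-Aa, an alpha chain, stood at 90.1, 75.2 and 49.6 TPM in WT and 15.1 and 16.6 TPM in KO of experiment 1. For experiment 3 it was 58.8 and 699 TPM in WT and 37.3 and 12.6 TPM in KO. All 5 WT libraries lay above all 4 KO libraries, also when the library at 699 TPM is set aside, and the difference was -2.57 (SE 0.62, limma adjusted p = 0.616). H2-Eb1, a beta chain, stood at 83.7, 73.9 and 24.1 TPM in WT and 13.3 and 7.87 TPM in KO of experiment 1, and at 59.5 and 599.6 TPM in WT and 37.5 and 3.66 TPM in KO of experiment 3. Cd74, the invariant chain, overlapped, at 52.4 to 358 TPM in 4 WT libraries and 2002 TPM in the fifth, against 49.1 to 175 TPM in KO. Ciita, the transcription factor that switches the group on, stood at 3.03 to 15.8 TPM in WT and 2.50 to 5.12 TPM in KO, with a difference of -0.63.

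Pan-leukocyte and macrophage markers moved in the same direction in the same libraries. Of 12 measured pan-leukocyte markers 12 were below 0 and 5 had an unadjusted p under 0.05, and of 14 macrophage and monocyte markers 14 were below 0 and 7 had one. Over all genes 1.36% reached that p on the lower side. Without WT replicate 2 of experiment 3 the members at that p were 3 of 10 pan-leukocyte and 4 of 14 macrophage markers. All of these were lower, beside 91 of 13485 genes on that side. In the 2 lists 8 and 12 members were below 0 without that library. The relative medians were -1.95 and -2.64 with all libraries, and -1.21 and -1.76 without that library. Dendritic cell markers were split: 3 of 5 measured members were above 0 and 2 below. An unadjusted p under 0.05 was reached by 1 on the higher side and 2 on the lower side, beside 6.27% and 1.36% of all genes. Without WT replicate 2 of experiment 3 it was reached by 0 dendritic cell markers. Their relative median was 0.081, and -0.016 without that library. Neutrophil, T and NK cell, and B and plasma cell lists had 1 measured member each, with differences of -1.93, -0.28 and 0.29. Ptprc, which encodes CD45, stood at 8.14, 4.55 and 3.85 TPM in WT and 0.93 and 0 TPM in KO of experiment 1. The experiment 3 values were 13.4 and 109 TPM in WT and 11.1 and 0.53 TPM in KO. C1qc, a complement subunit made by macrophages, stood at 21.6, 5.19 and 7.80 TPM in WT and 1.46 and 0 TPM in KO of experiment 1. Its levels in experiment 3 were 23.4 and 656 TPM in WT and 14.3 and 0 TPM in KO. KO replicate 1 of experiment 3 was the KO library with the most leukocyte RNA, and its H2-Aa was the highest of the KO libraries too. The summed macrophage markers were 165 to 640.2 TPM in 4 WT libraries and 7896 TPM in the fifth, against 69.4 to 369 TPM in KO. Summed pan-leukocyte markers were 143 to 367.7 TPM and 3403 TPM in WT, against 173 to 335.6 TPM in KO. Their part in the MHC class II difference was not tested. Fibroblast markers did not move as one: the list median was 0.57 in experiment 1 and -2.34 in experiment 3, where WT replicate 2 carried them. Its relative median was -0.062 without that library.

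Genes of histones, ribosomes and mitochondria stood on the lower side. Of 55 measured gene rows of replication-dependent histones 42 were below 0, with a relative median of -0.73. It was -0.45 without WT replicate 1 of experiment 1 and -0.38 without KO replicate 2 of experiment 3. Their summed TPM was 2500.1 to 2870 in 3 KO libraries and 8725 in KO replicate 1 of experiment 3, against 2515 to 9196 in WT. It was 6202 to 9196 in WT replicate 1 of experiment 1 and in experiment 3 except KO replicate 2. Those libraries had 17082 to 20526 genes above 0. KO replicate 1 of experiment 1 had 2870 TPM and 17831 genes above 0. The remaining libraries had 2500.1 to 2728 TPM and 12550 to 14540 genes above 0. The part of this in the genotype difference was not tested. Most replication-dependent histone messages lack a poly(A) tail, and this library kit works from total RNA. Hist1h2ak, a histone H2A gene, stood at 265, 142 and 107 TPM in WT and 98.8 and 58.3 TPM in KO of experiment 1 and at 209 and 292 TPM in WT and 268 and 38.3 TPM in KO of experiment 3. KO replicate 1 of experiment 3 was thus among the WT libraries.

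Of 30 cytosolic ribosomal protein genes 29 were below 0 with a relative median of -0.44, and 0 had an unadjusted p under 0.05. Their summed TPM overlapped, at 14213 to 26911 in WT and 15710 to 22532 in KO. It was 19923 to 26911 in WT replicate 1 of experiment 1 and in experiment 3 except KO replicate 2. The remaining libraries had 14213 to 20630 TPM, with the lowest sum in a WT library. Of 30 nuclear-encoded subunits of oxidative phosphorylation 24 were below 0 with a relative median of -0.43, and 3 were without overlap in both experiments, all lower, beside 0.704% of all genes on that side. These were Ndufb8, given above, and Ndufa5 and Atp5c1, subunits of complex I and of ATP synthase. The summed TPM of the oxidative phosphorylation list overlapped too, at 2435 to 4226 in WT and 2630 to 3638 in KO. It was 3408 to 4226 in WT replicate 1 of experiment 1 and in experiment 3 except KO replicate 2, and 2435 to 2972 elsewhere. The part of these library differences in the genotype difference was not tested. All 13 protein-coding genes of the mitochondrial genome were below 0, with medians of -1.02 in experiment 1 and -0.06 in experiment 3. The relative median was -0.75, and it was -0.37 without WT replicate 2 and -0.39 without KO replicate 2 of experiment 1. Their summed TPM was 22457, 106801 and 67372 in WT and 32914 and 21309 in KO of experiment 1, so 1 WT library was close to the KO libraries and 2 were far above.

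Set side by side, 21 of the 36 gene lists had a median above that of all genes. That number was 13 without WT replicate 2 of experiment 3 and 10 in experiment 1 alone. With all 9 libraries, the lists that stood farthest above were immediate early genes, interferon-stimulated genes and PYHIN genes, the last with 0.0074 in experiment 3 alone, and those farthest below were MHC class II, the mitochondrial genome and histones.

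**Figure D5:**
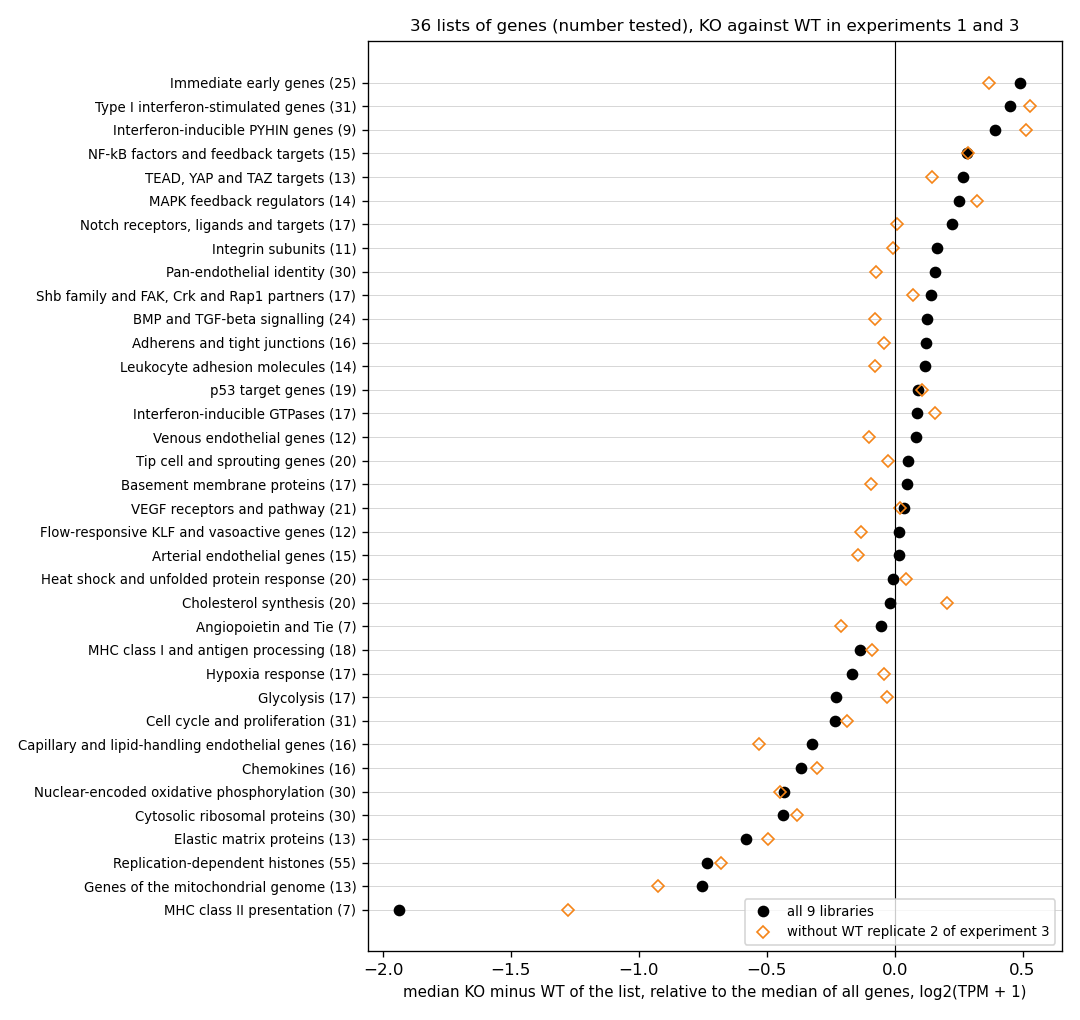
Median difference of each of 36 gene lists relative to the median of all genes, log2(TPM + 1), with the number of gene rows tested in brackets; filled points use all 9 libraries and open diamonds leave out WT replicate 2 of experiment 3. The median of MHC class II genes moves from -1.94 to -1.28, and endothelial lists near 0 move across it.

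The 2 experiments were compared with each other by the interaction of genotype and experiment. Of 13786 genes 0 were called (0%), with a smallest limma adjusted p of 0.9999, and 178 had an unadjusted p under 0.05 where 689 is 5%. Of all genes tested 6236 (45.2%) were higher and 2394 (17.4%) lower in both experiments. Across genes the 2 sets of differences had Pearson's r = 0.246 and Spearman's rho = 0.254, and r = 0.133 without WT replicate 2 of experiment 3; genes are not independent replicates. Serpinf1, which encodes the angiogenesis inhibitor PEDF, had differences of 1.72 in experiment 1 and -2.49 in experiment 3. It stood at 4.21, 5.85 and 11.2 TPM in WT and 13.8 and 40.8 TPM in KO of experiment 1, and at 37.8 and 49.5 TPM in WT and 12.6 and 3.60 TPM in KO of experiment 3. The genotypes were apart in both experiments and in opposite order. Bloc1s1, a subunit of a lysosome-sorting complex, had differences of -1.64 and 0.14.

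Experiments 2 and 4 gave 10 further libraries, 6 WT and 4 KO, whose columns matched 1 sample each. The mean difference in experiments 1 and 3 was set against that in experiments 2 and 4 in 1 fit of all 19 libraries. Of 15678 genes 0 were called (0%), with a smallest limma adjusted p of 0.434, and 784 had an unadjusted p under 0.05, which is 5% of those tested. Leaving out WT replicate 1 of experiment 1 gave 1 call (Gm27019), and leaving out KO replicate 2 of experiment 1 gave 2 (Snord104 and Rpl35a-ps6). For Shb the means were 0.11 in experiments 1 and 3 and -1.48 in experiments 2 and 4. Shb stood at 40.7 to 64.3 TPM in WT and 14.3 to 34.9 TPM in KO of experiment 2, and at 23.4 to 30.5 TPM in WT and 6.00 to 7.99 TPM in KO of experiment 4. There the genotypes did not overlap among the libraries used, which lack the last KO replicate of each experiment. The difference between the pairs of experiments was 1.59 (SE 0.58, limma unadjusted p = 0.0147, adjusted p = 0.853).

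Gene lists differed between the pairs of experiments in the values below, which were not tested as lists. The median of interferon-stimulated genes was 0.85 and 0.43 in experiments 1 and 3, and 0.95 and -0.19 in experiments 2 and 4. Immediate early genes had medians of 0.82 and 0.60, against -0.19 and -0.17. MAPK feedback regulators had 0.58 and 0.26, against -0.24 and -0.76. MHC class II genes lay below 0 in all 4, at -0.62 and -3.09 in experiments 1 and 3 and -1.24 and -0.97 in experiments 2 and 4. Among the genes that differed most between the pairs, Sirt1, a deacetylase that restrains Notch signalling in endothelium, had a mean difference of 0.96 against -0.79 (limma adjusted p = 0.853). Its difference was -0.12 in experiment 2 and -1.46 in experiment 4. Ccnh had -1.21 against 0.64 (limma adjusted p = 0.853), so its low KO values were seen in experiments 1 and 3 and not in experiments 2 and 4. Dusp2 had 1.19 against -0.74 (limma adjusted p = 0.853).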

How the data were processed

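The authors' deposited table holds TPM values of 45706 genes, of which 45143 identifiers were found in the GENCODE M21 annotation; 27 gene names that had turned into dates were restored from it. Per the labels' protocols, libraries were made from 30 ng of total RNA with a stranded kit that depletes ribosomal RNA and were read as pairs of 150 bases. Per the submitters' processing notes, reads were placed on GRCm38. For the aligner and counter, names were not given in the sources used here. In the table, 2 columns of per-sample values could not be tied to 1 sample and were not used. The samples left without a column were the last KO replicate of experiment 2 and that of experiment 4.

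Groups and experiment numbers were taken from the sample titles. Genes that reached 1 TPM in 4 or more of the 9 libraries were tested on log2(TPM + 1) with limma 3.58.1 and statmod 1.5.0 in R 4.3.3 (genotype and experiment as terms, trended and robust prior), and p-values were adjusted by Benjamini-Hochberg over all genes tested, with a threshold of 0.05. The code was tested on simulated data. Values of single quantities were compared by two-sided exact permutation within experiments. TPM values keep no depth, so precision rests on the spread between libraries, which may in part be technical.

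The members and the gene lists were chosen with earlier results of these data known. There were 51 lists (36 of biology, 14 of cell types, 1 technical), and 813 of their 828 genes were found. The genes named were Shb; up to 12 in each direction among genes called, filled to 10 by the smallest unadjusted p, with the same sign in both experiments, a mean level of 2 or more on that log2 scale and predicted models left out; up to 4 members of each biology list by p; up to 3 of the highest of each cell type list; 6 in each direction for the contrast with experiments 2 and 4; and 3 in each direction for the interaction. Not all of these are printed. Genes named outside that rule, such as Hist1h4n, Gm21887, Isg15, Rsad2, Fos, Rap1a, Ifih1 and Etv5, were picked after their values had been seen. Shared windows were counted between GENCODE M21 transcripts. Alternatives were other added values, filters, scalings, models and sets of libraries.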

Additional observations from a re-analysis of the deposited data

Results flagged for a closer look

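In groups of 4 or 5 libraries, a highest or lowest library was picked out where its gap to the nearest other library was large against the whole range of its group (Dixon's critical value at 95%). Of 102 values in 204 groups 35 were picked out. The values were TPM without logs, pooled over both experiments and not independent of each other, so no chance rate is given. Most lay in 2 libraries.

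WT replicate 2 of experiment 3 was far above the other 4 WT libraries in leukocyte and stromal transcripts. Its summed markers were 7896 TPM for macrophages and monocytes, 3403 TPM for pan-leukocyte genes, 1021 TPM for fibroblasts and 4521 TPM for MHC class II. Among antigen presentation genes it held 698.95 TPM of H2-Aa, 599.6 TPM of H2-Eb1, 940.8 TPM of H2-Ab1 and 2002 TPM of Cd74. Among phagocyte genes it held 1572 TPM of Lyz2, 1437 TPM of Ctss, 907.8 TPM of Fcer1g, 655.9 TPM of C1qc, 295 TPM of Fcgr3, 111.5 TPM of Naaa and 109 TPM of Ptprc. The kinase Src and the receptor kinase Axl stood at 29.2 and 122 TPM there.

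KO replicate 1 of experiment 3 stood apart from the other 3 KO libraries. Its immediate early genes summed to 4159 TPM, below the others, with Fosb at 122 TPM and Cyr61 at 337 TPM. It was above the others for summed histones at 8725 TPM, with Hist1h2ae at 74.8 TPM, and for oxidative phosphorylation subunits at 3638 TPM. Its leukocyte transcripts were also the highest of the KO group, with pan-leukocyte genes at 335.6 TPM, Lyz2 at 91.9 TPM, H2-Aa at 37.3 TPM, Ctss at 34.7 TPM, C1qc at 14.3 TPM, Ptprc at 11.1 TPM and Fcgr3 at 7.54 TPM.

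Single values stood apart in other libraries. KO replicate 2 of experiment 3 was the only KO library with Hist1h4m above 0, at 1.38 TPM. Fibroblast markers summed to 219.95 TPM in KO replicate 1 of experiment 1. In experiment 1, WT replicate 1 was high in Sh2d5 (89.3 TPM) and WT replicate 2 was low in Rsad2 (25.6 TPM). In experiment 3, WT replicate 1 was high in Vmn2r-ps19 (6.14 TPM).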

How the results depend on the processing

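Hist1h4m was the only gene called under every alternative that tested it, and the number called was 0 in experiment 1 alone and 0 in experiment 3 alone, where Hist1h4m did not reach 1 TPM in at least 4 libraries. Shb had no stable sign: its difference was -0.21 with library weights, -0.0605 in experiment 3 alone and -0.14 to 0.44 with single libraries left out. The contrast with experiments 2 and 4 called 0 to 2 genes with single libraries left out. The number of lists above the median of all genes was 10 in experiment 1 alone and 13 to 24 with single libraries left out. Genes without overlap on the lower side, 97 as deposited, were 173 on a common median and 158 after rescaling without mitochondrial and abundant noncoding RNAs. Those on the higher side, 689 as deposited, were 465 to 602 under these alternatives and a filter at a mean of 5 TPM.

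List medians that changed sign were -0.0014 for VEGF genes with 0.1 as the added value and -0.0617 in experiment 1 alone, -0.0386 for pan-endothelial genes in experiment 1 alone (-0.0735 to 0.25 with single libraries left out) and 0.52 for fibroblast markers in experiment 1 alone. Among single genes, Ifi27l2a was 0.0849 in experiment 1 alone and Hist1h4n -0.20 in experiment 3 alone. The causes of these changes were not tested.

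With replicate number as a further block in the fit 1 gene was called, 1001 genes stood higher and 238 lower at an unadjusted p under 0.05, Shb differed by 0.37 (two-sided exact permutation p = 0.625) and 22 lists lay above the median. Whether the replicate numbers pair the samples was not settled. Deviations of same-numbered WT and KO libraries correlated at 0.077 and 0.027 in experiment 1 and at -0.209 in experiment 3. With 2 libraries per genotype in experiment 3, the value is the same for both pairs by construction.

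TPM values keep no counting depth, so no detection limit can be given for a gene listed at 0. With 6 residual degrees of freedom and adjustment over 13786 genes, a difference that did not pass is not shown to be absent.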
